A study of Mus musculus with 9 samples.

Results

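The lysosome is the acidic compartment in which macrophages digest what they take up, and 37 of its genes were followed here in 3 kinds of cultured mouse macrophage. The genes were picked by symbol, by a rule that sets no threshold on expression but was drawn up with earlier results of these data known, and all 37 were found among the 46078 genes of the deposited table. They comprise 17 genes of the vacuolar proton pump, or V-ATPase (7 of its V0 sector, 8 of its V1 sector and 2 accessory proteins), 5 lysosome membrane genes, 10 hydrolases, the precursors Psap and Grn, and the transcription factors Tfeb, Tfe3 and Mitf. All 37 passed the filter on low values, at least 1 FPKM (fragments counted per transcript length and library size) in at least 3 libraries, which 11952 genes passed.

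All cells came from C57BL/6J mice. BMM are macrophages from bone marrow, and the labels give neither their medium nor the age of the mice. FLM_M were grown from fetal livers of gestational days 15 to 19 in 20% fetal bovine serum (FBS) with 30% L-cell supernatant, which supplies the growth factor M-CSF. FLM_G were grown from fetal livers of the same ages in 10% FBS with 30 ng/ml recombinant GM-CSF, with no L-cell supernatant listed. All cultures were kept for at least 8 weeks, and on the day before RNA was taken the cells of each kind were set out in triplicate wells of 250000 cells. Nothing in the labels says that the 3 libraries of a group came from separate cultures, and p-values measure the spread between these libraries only. FLM_G differed from FLM_M in growth factor and serum together. Both differed from BMM in tissue of origin and possibly in medium and in the age of the mice. The effects of these factors cannot be told apart. In bulk RNA, fewer cells of a type and less RNA per cell cannot be told apart either.

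The V-ATPase is a rotary motor. Its V1 sector, in the cytosol, hydrolyses ATP on the A and B subunits and turns a stalk, and its V0 sector, in the membrane, carries protons into the lumen through the a subunit and the c ring, with the d subunit joining stalk and ring. Hydrolases need the resulting low pH, and most of them are carried to the lysosome by mannose 6-phosphate receptors. Tfeb, Tfe3, Mitf and Tfec form the MiT/TFE family of basic helix-loop-helix factors, which bind E-boxes in lysosomal genes (the CLEAR motif). Their activity is set largely by phosphorylation at the lysosome surface, which RNA levels do not show. Some subunits have tissue forms: Atp6v0d2 is a d subunit known from osteoclasts and macrophages, and its partner form Atp6v0d1 is found in most cells.

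Values below are FPKM scaled between libraries by TMM factors (0.8 to 1.14), and the reads implied by the FPKM steps came to 28400000 to 35400000 per library. Changes are fitted log2 differences of FPKM + 1 with their standard error (SE) and limma's p adjusted over all 11952 tested genes, called at adjusted p under 0.05. This scale understates the change of low genes. The 3 comparisons share libraries, since each group enters 2 of them, so their values stand side by side and are not independent. Each group listed 9 of 9 macrophage markers at a mean of at least 1 FPKM, but their levels differed: in FLM_G, Mertk, Spi1 and Lyz2 were higher than in BMM and Csf1r, Adgre1, Itgam, Fcgr1 and Cd14 lower, with changes from -1.62 to 2.69. Their part in the results was not tested. Without scaling, the median tested gene lay at -0.34 (log2) in FLM_G against BMM and at -0.39 against FLM_M, and directions and calls in FLM_G that this turns are named with the gene or its class.

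More of the 37 genes were higher in FLM_G than in either other group, and few were lower. Against BMM, 26 were higher and 2 lower in FLM_G, where 33.8% and 34.1% of all tested genes were called higher and lower. The median change of the 37 was 0.70, beside a median of about 0 over all tested genes, and the range ran from -0.28 to 7.24. Against FLM_M, 24 were higher and 6 lower in FLM_G, where 35.5% and 35.1% of all tested genes were called, with a median of 0.60 and a range from -0.47 to 5.83. In FLM_M against BMM, 13 were higher and 6 lower, where 22.7% and 21.9% of all tested genes were called. There the median was 0.06 and the range ran from -0.95 to 1.41. Of the 6 lower genes, edgeR's quasi-likelihood test on the much shallower counts called 0, with 1 (Tfeb) at an unadjusted p under 0.05. By an earlier account of these data, those counts follow the opposite strand of most genes, so a missing call there is hard to read. This holds for every count of 0 by edgeR below as well. Without scaling the calls divided into 22 higher and 9 lower in FLM_G against BMM, and into 19 and 14 against FLM_M. Of all 11952 tested genes, 2081 were then called higher and 6775 lower against BMM, and 2218 and 7075 against FLM_M. With scaling, the shares over all tested genes given above stand beside each count of a class or list below.

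In the 3 comparisons, called changes of at least 2-fold were all upward. FLM_G had 10 such genes against BMM, where 9.84% of all tested genes were called at least 2-fold higher: Atp6v0c, Atp6v0d2, Atp6v1b2, Atp6v1d, Atp6v1e1, Atp6v1f, Gla, Mcoln1, Psap and Tfeb. Against FLM_M it had 9, where 11.3% of all tested genes were called so. FLM_M had 1 against BMM, Atp6v0d2, where the share over all tested genes was 3.74%. FLM_G held the highest mean for 27 of the 37 genes, beside 41.5% of all tested genes. Without scaling it held the highest mean for 19 of 37, beside 20.8% of all tested genes.

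**Figure D1:**
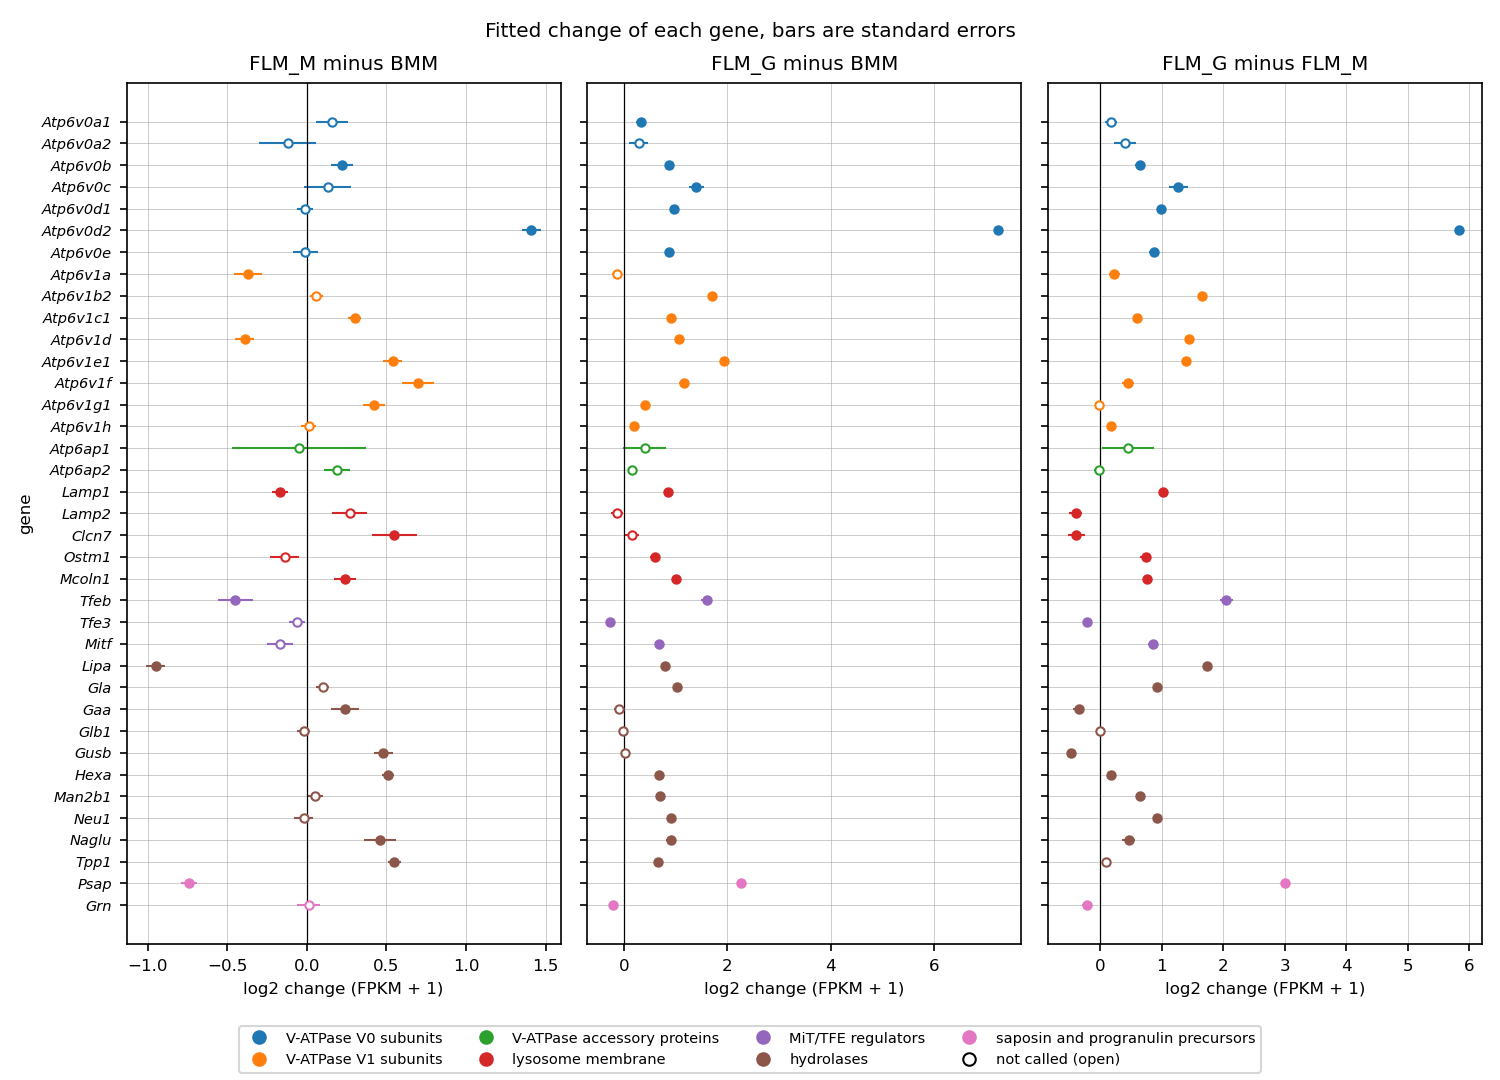
Fitted log2 change of each of the 37 genes (rows) with its SE (bars) in the 3 comparisons, coloured by class, with filled points for genes called at adjusted p under 0.05 and a separate axis range in each panel. Atp6v0d2 lies at 1.41, 7.24 and 5.83, far from the other genes, while Tfe3 and Grn lie below 0 in both comparisons of FLM_G.

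Of the regulators, Tfeb and Mitf were higher in FLM_G, and Tfe3 was lower. Tfeb, the factor best known for driving lysosomal genes, stood at 3.06, 3.57 and 4.68 in BMM, 2.48, 2.29 and 2.64 in FLM_M and 12.6, 13.6 and 13.8 in FLM_G. Every FLM_G library lay far above the others, and every FLM_M library lay below every BMM library. The change of Tfeb was 1.60 (SE 0.11, adjusted p = 2.52e-06) against BMM and 2.05 (SE 0.11, adjusted p = 3.95e-07) against FLM_M, ratios of 3.54 and 5.4 in mean FPKM. In FLM_M it was lower than in BMM, with a change of -0.45 (SE 0.11, adjusted p = 0.0125), while its BMM libraries differed by up to 1.53-fold among themselves.

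Tfe3 stood at 13.7, 14 and 14.8 in BMM, 14.3, 13.2 and 13.2 in FLM_M and 11, 11.3 and 12 in FLM_G. FLM_G was below both other groups with no overlap, and BMM and FLM_M overlapped. Its changes were -0.28 (SE 0.05, adjusted p = 0.00159) in FLM_G against BMM, -0.22 (SE 0.05, adjusted p = 0.00544) against FLM_M, and -0.06 (SE 0.05, adjusted p = 0.41) in FLM_M against BMM. Mitf, known from pigment cells and osteoclasts, stood at 6.22, 6.16 and 6.26 in BMM, 5.66, 4.92 and 5.66 in FLM_M and 11.5, 11 and 9.26 in FLM_G. Its FLM_G libraries were the highest, and it changed by 0.68 (SE 0.08, adjusted p = 9.73e-05) against BMM and 0.85 (SE 0.08, adjusted p = 1.89e-05) against FLM_M, while FLM_M was not called against BMM (-0.17, SE 0.08, adjusted p = 0.128).

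Tfec, the family member known from macrophages and osteoclasts and not one of the 37, stood at 1.4 ± 0.13 in BMM, 2.24 ± 0.401 in FLM_M and 11 ± 0.711 in FLM_G (SD, n = 3 libraries). It was higher in FLM_G than in BMM by 2.32 (SE 0.10, adjusted p = 5.51e-08). The summed FPKM of the 4 family members was 25.6 ± 1.31 in BMM, 23.7 ± 1.26 in FLM_M and 46.4 ± 0.957 in FLM_G. Within that sum, which scaling does not touch, Tfe3 made up 55.5 ± 0.78% in BMM, 57.3 ± 2.4% in FLM_M and 24.7 ± 1.5% in FLM_G. Tfeb made up 14.7 ± 2.5%, 10.4 ± 0.42% and 28.8 ± 1.8%, and Tfec 5.49 ± 0.71%, 9.43 ± 1.4% and 23.7 ± 1.1%. The share of Mitf stayed between 22.8% and 24.4% in the group means. More than any other member, Tfe3 made up the family's RNA in BMM and FLM_M, and in FLM_G the shares of all 4 lay between 22.8% and 28.8%. The ratio of Tfeb to Tfe3 was 0.222, 0.255 and 0.317 in the BMM libraries, 0.174, 0.174 and 0.199 in FLM_M, and 1.14, 1.19 and 1.15 in FLM_G.

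**Figure D2:**
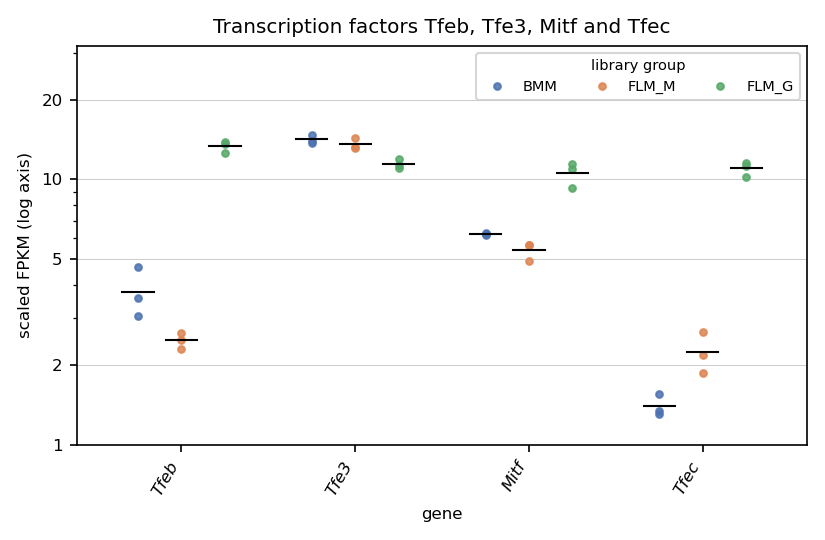
Scaled FPKM (log axis) of the 4 MiT/TFE factors in each of the 9 libraries, with points for libraries and a black line for each group mean. The FLM_G points of Tfeb, between 12.6 and 13.8, lie above those of Tfe3, between 11 and 12, while in BMM and FLM_M Tfe3 is the highest of the 4.

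Motifs of this family were searched for in RefSeq promoter windows (build GRCm38.p6, 250 bases before to 50 after a transcript start), which 31 of the 37 genes had. Atp6v0a2, Atp6v0d2, Atp6v1b2, Atp6v1c1, Atp6v1g1 and Atp6v1h had no window in the table. The CLEAR-type palindrome TCACGTGA was in a window of 6 of 31 genes (19.4%), beside 304 of 27025 genes in the table (1.12%). Its core CACGTG, which the palindrome contains, was in 11 of 31 (35.5%), beside 8.09% of all genes. The M-box TCATGTGA, whose letters do not hold that core, was in 4 of 31 (12.9%), beside 1.15%. Both strands were searched, and a match is a description of these letters, not a bound site. The CLEAR motif is known from lysosomal genes, so the list and the motif are not independent, and the shares are no result of these libraries.

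The matches are shown to set the letters and their place beside the levels of the genes, which ranged from higher to not called for the CLEAR-type match and from higher to lower for the M-box in FLM_G against BMM. Each line gives 30 bases 5′ to 3′ on the gene's strand with the motif in capitals, and the place of its first base counted from the transcript start:
Atp6v0d1 (CLEAR, chr8:105566050-105566079, minus strand, motif from -4): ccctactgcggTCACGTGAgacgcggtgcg
Atp6v0e (CLEAR, chr17:26676387-26676416, plus strand, motif from 2): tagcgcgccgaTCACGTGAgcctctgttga
Atp6v1a (CLEAR, chr16:44139373-44139402, minus strand, motif from -132): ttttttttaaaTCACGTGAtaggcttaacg
Clcn7 (CLEAR, chr17:25133386-25133415, plus strand, motif from 6): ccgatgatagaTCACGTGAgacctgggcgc
Mcoln1 (CLEAR, chr8:3500462-3500491, plus strand, motif from -46): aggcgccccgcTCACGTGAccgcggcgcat
Gla (CLEAR, chrX:134601215-134601244, minus strand, motif from -228): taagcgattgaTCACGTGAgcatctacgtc
Gla (CLEAR, chrX:134601182-134601211, minus strand, motif from -195): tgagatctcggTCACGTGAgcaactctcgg
Atp6v0c (M-box, chr17:24169449-24169478, minus strand, motif from -17): gcggggacagaTCATGTGAcgcgagcgcgg
Grn (M-box, chr11:102430285-102430314, plus strand, motif from -211): tgattctctaaTCACATGAtccctagaaat
Tpp1 (M-box, chr7:105752213-105752242, minus strand, motif from 4): ccagaccatgcTCATGTGActtatcacatg
Gla also held an M-box between its 2 CLEAR-type matches, and Tpp1 a second M-box. Of the 6 genes with a CLEAR-type match, 4 were higher in FLM_G than in BMM, with a median change of 0.92. Atp6v1a and Clcn7 were not called, at -0.14 and 0.15. Of the 25 genes with a window and no such match, 17 were higher and 2 lower, with a median of 0.68. Of the 6 without a window 5 were higher, with a median of 0.65. Of the 4 genes with an M-box, Atp6v0c, Gla and Tpp1 were higher and Grn was lower.

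In the V0 sector, 6 of 7 genes were higher in FLM_G than in BMM, with a median change of 0.87, and 5 of 7 were higher than in FLM_M, with a median of 0.88. FLM_M and BMM differed less: 2 of 7 were higher in FLM_M, and the median was 0.13. In none of the 3 comparisons was a V0 gene lower, by limma or by edgeR on the counts, and the count at an unadjusted p under 0.05 was also 0. Without scaling Atp6v0a1 lay lower in FLM_G than in both, at -0.08 against BMM, not called, and at -0.29 against FLM_M, where limma called it (adjusted p = 0.0233).

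In FLM_G the main form of the d subunit in RNA was another one than in BMM and FLM_M. Atp6v0d2 (chr4:19876841-19922605, minus strand) stood at 5.14, 5.16 and 5.66 in BMM, 15, 15.8 and 16.6 in FLM_M and 1011, 916 and 936 in FLM_G. The 3 groups were far apart with little spread inside each, and by mean level it was 6759th of all genes in BMM, 3270th in FLM_M and 67th in FLM_G. The change was 7.24 (SE 0.06, adjusted p = 5.49e-12) in FLM_G against BMM, a ratio of 179 in mean FPKM. It was 5.83 (SE 0.06, adjusted p = 1.13e-11) against FLM_M, a ratio of 60.3, and 1.41 (SE 0.06, adjusted p = 1.83e-07) in FLM_M against BMM, a ratio of 2.97.

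Atp6v0d1 (chr8:105524465-105566047, minus strand) stood at 97.8, 99.3 and 97 in BMM, 100.5, 97 and 94.1 in FLM_M and 183, 199 and 196 in FLM_G. BMM and FLM_M overlapped, and FLM_G was higher in every library. It changed by 0.97 (SE 0.05, adjusted p = 1.72e-07) in FLM_G against BMM and by 0.98 (SE 0.05, adjusted p = 1.38e-07) against FLM_M, and the difference of FLM_M from BMM was -0.01 (SE 0.05, adjusted p = 0.862). The share of Atp6v0d2 in the d subunit FPKM was 4.99%, 4.94% and 5.51% in the BMM libraries. It was 13.0%, 14.0% and 15.0% in FLM_M, and 84.7%, 82.2% and 82.7% in FLM_G. The RNA of both forms was thus higher in FLM_G. The form that was the minor one in BMM and FLM_M was the major one in FLM_G RNA, at any scaling. Protein was not measured.

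Atp6v0d2 is also an osteoclast gene, and the 7 osteoclast markers moved with it in part. Their summed FPKM lay between 14.1 and 14.5 in BMM, 9.4 and 10.96 in FLM_M, and 1235 and 1257 in FLM_G, with 3, 3 and 4 of 7 at a mean of at least 1 FPKM. In FLM_G the sum was nearly all Ctsk (1.62 ± 0.256 in BMM, 1.34 ± 0.194 in FLM_M and 1078 ± 5.49 in FLM_G) and Acp5 (4.38, 0.0588 and 158). Nfatc1, the osteoclast master factor, stood at 7.12 ± 0.0704, 7.01 ± 0.799 and 6.16 ± 0.275, Calcr was listed at 0 in all libraries, and in FLM_G Mmp9 stood at 0.036, 0 and 0, Ocstamp at 0.251, 0.27 and 0.323 and Dcstamp at 4.86, 4.43 and 3.53. In BMM the 3 at a mean of at least 1 FPKM were Ctsk, Acp5 and Nfatc1, so the mean of Dcstamp was below 1 there. The part of osteoclasts in the level of Atp6v0d2 was not tested.

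The c ring gene Atp6v0c (chr17:24163866-24169702, minus strand) stood at 122, 83.5 and 80.1 in BMM, 98.1, 111 and 98.9 in FLM_M and 234, 261 and 249 in FLM_G. FLM_G was the highest in every library, and 1 BMM library lay above all FLM_M libraries. It changed by 1.40 (SE 0.15, adjusted p = 3.23e-05) against BMM and 1.27 (SE 0.15, adjusted p = 5.52e-05) against FLM_M, and FLM_M was not called against BMM (0.13, SE 0.15, adjusted p = 0.509). Without BMM replicate 1 it was called higher in FLM_M, at 0.32 with adjusted p = 0.0128. Its processed copy Atp6v0c-ps2, with which it shares 7.78% of its windows of 101 bases (the read length), was listed above the gene itself, at a mean of 117.7 FPKM in BMM, 146.2 in FLM_M and 347.0 in FLM_G. How reads were divided between them is uncertain, and their sum was 213.0 ± 22.3 in BMM, 248.8 ± 17.3 in FLM_M and 595.1 ± 29.7 in FLM_G.

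Atp6v0e, a small V0 protein, stood at 36.8, 36.9 and 37.7 in BMM, 32.3, 41.8 and 36.9 in FLM_M and 65.8, 70.2 and 70.5 in FLM_G. FLM_G was again apart, with 0.87 (SE 0.08, adjusted p = 1.79e-05) against BMM, and BMM lay inside the range of FLM_M. Atp6v0b, the other proteolipid of the ring, rose in steps, with 86.3 ± 2.83 in BMM, 101 ± 3.07 in FLM_M and 159 ± 13.8 in FLM_G, 0.22 (SE 0.07, adjusted p = 0.0238) in FLM_M against BMM and 0.87 (SE 0.07, adjusted p = 3.97e-06) in FLM_G against BMM. The first of these calls was lost in 3 of 9 fits that each left out 1 library (BMM replicates 1 and 2 and FLM_M replicate 2).

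The a subunit, which forms the proton path and steers the pump to its membrane, has several forms. Atp6v0a1 stood at 20.5, 20.3 and 19.5 in BMM, 26.7, 19.8 and 21.6 in FLM_M and 24.9, 26.9 and 24.8 in FLM_G. FLM_M replicate 1 lay inside the range of FLM_G. The change was 0.33 (SE 0.10, adjusted p = 0.0145) in FLM_G against BMM, which was lost without BMM replicate 3 and reversed without scaling. Atp6v0a2, the form known from the Golgi and endosomes, stood at 7.27, 5.29 and 7.24 in BMM, 8.31, 4.84 and 5.1 in FLM_M and 8.19, 7.76 and 8.47 in FLM_G, with overlap between BMM and FLM_M and no call in any comparison. Leaving out FLM_M replicate 1 gave a call for both against FLM_M.

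Tcirg1, the a3 form of lysosomes and osteoclasts and not one of the 37, was the major form throughout. It stood at 90.8 ± 8.53 in BMM, 73.4 ± 4.0 in FLM_M and 129 ± 10.3 in FLM_G, and it was lower in FLM_M than in BMM (-0.30, SE 0.09, adjusted p = 0.0199) and higher in FLM_G than in BMM (0.50, SE 0.09, adjusted p = 0.000786). It made up 77.2 ± 2.3% of a subunit FPKM in BMM, 71.9 ± 4.5% in FLM_M and 79.2 ± 1.2% in FLM_G. Atp6v0a1 made up 17.2 ± 1.6%, 22.2 ± 2.9% and 15.8 ± 0.91%. Of 8 other V-ATPase genes, 2 passed the filter, and Atp6v1b1, the B form of kidney, was listed at 0 in every library.

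**Figure D3:**
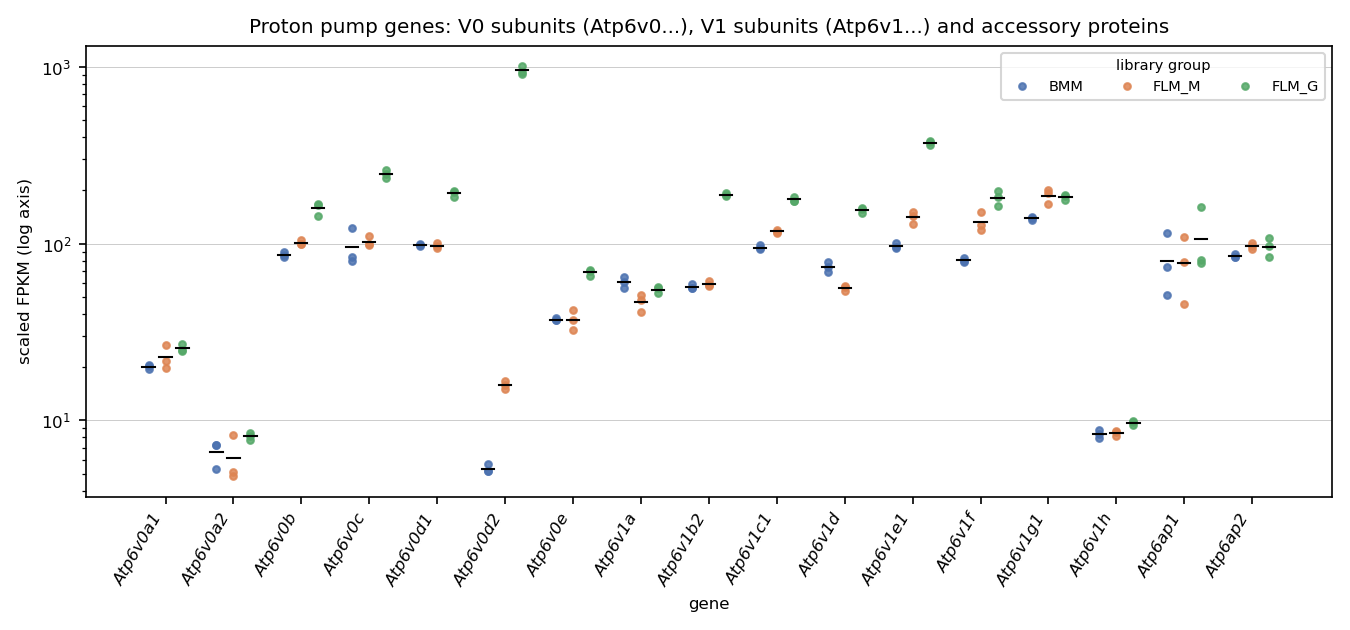
Scaled FPKM (log axis) of the 17 proton pump genes in each of the 9 libraries, with points for libraries and a black line for each group mean. Atp6v0d2 spans from 5.14 to 1011, while Atp6v1a and Atp6v1h lie within a narrow band in all groups and Atp6ap1 scatters within every group.

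In the V1 sector 7 of 8 genes were higher in FLM_G than in BMM, with a median change of 0.98, and 7 of 8 were higher than in FLM_M, with a median of 0.53. Against BMM, FLM_M was mixed, with 4 higher, 2 lower and a median of 0.18. Without scaling, Atp6v1g1 and Atp6v1h turned in FLM_G against BMM (-0.02 and -0.19), and Atp6v1a, Atp6v1f and Atp6v1h turned against FLM_M (-0.25, -0.03 and -0.26). By limma Atp6v1a and Atp6v1h were then called lower in FLM_G than in both groups, and Atp6v1g1 lower than in FLM_M.

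Atp6v1e1, a peripheral stalk subunit, had the largest change of the sector, with 100.2, 95.5 and 94.3 in BMM, 128, 150.1 and 144 in FLM_M and 375, 363 and 380.0 in FLM_G. The groups did not overlap, and the changes were 0.54 (SE 0.06, adjusted p = 0.00014) in FLM_M against BMM, 1.94 (SE 0.06, adjusted p = 1.07e-08) in FLM_G against BMM and 1.40 (SE 0.06, adjusted p = 8.18e-08) in FLM_G against FLM_M. Atp6v1b2, the B subunit of the ATP-binding ring, stood at 56.3, 56.1 and 58.7 in BMM, 58.7, 57.9 and 61.6 in FLM_M and 192, 189 and 185 in FLM_G. BMM and FLM_M overlapped and FLM_G was far above both, by 1.71 (SE 0.04, adjusted p = 2.17e-09) and 1.65 (SE 0.04, adjusted p = 2.32e-09).

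Atp6v1d, a subunit of the central stalk, stood at 78.8, 73.7 and 69 in BMM, 54.1, 57.9 and 56.7 in FLM_M and 157, 149.8 and 159.9 in FLM_G. FLM_M was lowest and FLM_G highest with no overlap, so the gene fell in FLM_M against BMM, with a change of -0.39 (SE 0.06, adjusted p = 0.000691) and rose in FLM_G by 1.07 (SE 0.06, adjusted p = 3.65e-07). Atp6v1f, which sits in the same stalk, went up in both fetal liver cultures, with 80, 82.5 and 79.2 in BMM, 119.5, 150.5 and 127 in FLM_M and 162, 184 and 198 in FLM_G. The groups did not overlap, and the changes against BMM were 0.70 (SE 0.10, adjusted p = 0.000391) in FLM_M and 1.16 (SE 0.10, adjusted p = 6.8e-06) in FLM_G. These 2 partners of 1 stalk thus moved in opposite directions in FLM_M.

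Atp6v1a, the catalytic A subunit, did not follow its ring partner Atp6v1b2. It stood at 65, 55.8 and 61 in BMM, 51, 41.2 and 48.2 in FLM_M and 55.8, 56.8 and 52.4 in FLM_G. BMM lay above FLM_M in every library, and FLM_G overlapped BMM. It was lower in FLM_M than in BMM (-0.37, SE 0.09, adjusted p = 0.00811), not called in FLM_G against BMM (-0.14, SE 0.09, adjusted p = 0.194), and higher in FLM_G than in FLM_M (0.23, SE 0.09, adjusted p = 0.0381), a call lost in 5 of 9 fits without 1 library (BMM replicate 3, FLM_M replicates 2 and 3, FLM_G replicates 1 and 2). The ratio of Atp6v1b2 to Atp6v1a, chosen for description after its values were seen, was 0.865, 1.01 and 0.963 in BMM, 1.15, 1.40 and 1.28 in FLM_M, and 3.45, 3.33 and 3.53 in FLM_G. The assembled ring holds both proteins in equal number, and the ratio of their RNA was closest to 1 in BMM. Protein was not measured, and a ratio of RNA does not give the ratio of the proteins.

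Of the other V1 genes, Atp6v1c1 rose in steps, with 95 ± 2.66 in BMM, 117 ± 2.48 in FLM_M and 178 ± 5.4 in FLM_G. Atp6v1g1 stood at 139 ± 2.86 in BMM, 187 ± 17.4 in FLM_M and 184 ± 7.19 in FLM_G and was higher than in BMM in both fetal liver cultures, by 0.42 (SE 0.07, adjusted p = 0.00122) in FLM_M and 0.40 (SE 0.07, adjusted p = 0.000843) in FLM_G, the latter not without scaling. It shares 7.25% of its read-length windows with the processed copy Gm13453, listed at means of 28.8 to 34.6 FPKM. Atp6v1h, the subunit that regulates the coupling of ATP use, was the lowest of the sector, at 8.38 ± 0.433 in BMM, 8.46 ± 0.284 in FLM_M and 9.71 ± 0.268 in FLM_G, with 0.19 (SE 0.05, adjusted p = 0.012) in FLM_G against BMM, a call lost without BMM replicate 3.

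With scaling, the accessory proteins gave no call by limma or by edgeR on the counts; at an unadjusted p under 0.05 limma gave 0, and edgeR gave Atp6ap1 in FLM_G and Atp6ap2 in FLM_M, each above BMM. Atp6ap1 stood at 50.9, 116 and 73.4 in BMM, 109, 45.6 and 78.7 in FLM_M and 77.3, 162 and 80.3 in FLM_G, with no group apart from the others. Inside each group its highest value was 2.09 to 2.39 times its lowest, and 9.86% to 13.6% of tested genes had a spread of over 1.5 times. With an SE of 0.42, only a large difference between groups could be detected, and none was called. Atp6ap2, also known as the prorenin receptor, stood at 87.1, 84.4 and 83.5 in BMM, 92.8, 97.2 and 101 in FLM_M and 108, 96.4 and 83.7 in FLM_G, with 0.16 (SE 0.08, adjusted p = 0.11) in FLM_G against BMM. Its result depended on the processing. Without scaling limma called it in every comparison, at 0.25 in FLM_M against BMM, and at -0.25, a turned direction, and -0.51 in FLM_G against BMM and FLM_M (adjusted p = 0.0473, 0.0287 and 0.000716). It was also called higher in FLM_M than in BMM in the fit of those 6 libraries and without FLM_G replicate 1 or 3, and higher in FLM_G than in BMM without FLM_G replicate 3 (0.28, adjusted p = 0.00574).

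Of the 5 membrane genes, 3 were higher in FLM_G than in BMM, with a median change of 0.60, and 0 were lower by limma or edgeR, also at an unadjusted p under 0.05. Without scaling limma called Lamp2 lower there (-0.55, adjusted p = 0.00255). Against FLM_M, 3 were higher and 2 lower, with a median of 0.74, and in FLM_M against BMM 2 were higher and 1 lower, with a median of 0.24. Lamp1, the most abundant glycoprotein of the lysosomal membrane, stood at 648, 611 and 595 in BMM, 561, 525 and 562 in FLM_M and 1121, 1110 and 1103 in FLM_G. FLM_G was 1.8-fold above BMM and 2.02-fold above FLM_M, by 0.85 (SE 0.05, adjusted p = 1.05e-06) and 1.02 (SE 0.05, adjusted p = 2.6e-07). FLM_M was lower than BMM, with a change of -0.17 (SE 0.05, adjusted p = 0.0313), a call lost in 5 of 9 fits without 1 library (BMM replicates 1 and 2, FLM_M replicates 2 and 3, FLM_G replicate 2) and without scaling.

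Lamp2, its relative with a role in autophagy, had the opposite order of means, at 42.8 ± 2.31 in BMM, 51.8 ± 2.06 in FLM_M and 39.2 ± 6.78 in FLM_G. It was lower in FLM_G than in FLM_M, with a change of -0.40 (SE 0.11, adjusted p = 0.0108). Against BMM it was not called in FLM_G (-0.14, SE 0.11, adjusted p = 0.309) or in FLM_M (0.27, SE 0.11, adjusted p = 0.0854). The ratio of Lamp1 to Lamp2 was 14.4 ± 0.19 in BMM, 10.6 ± 0.18 in FLM_M and 28.9 ± 5.1 in FLM_G. Mcoln1, a calcium channel of the lysosome that acts upstream of Tfeb, stood at 10.9, 12.3 and 12.4 in BMM, 14.2, 14.7 and 13.7 in FLM_M and 23.1, 25.8 and 25.5 in FLM_G. It rose in steps with no overlap, by 0.24 (SE 0.07, adjusted p = 0.0186) in FLM_M and 1.00 (SE 0.07, adjusted p = 1.54e-06) in FLM_G against BMM. The first call was lost without BMM replicate 1 and without FLM_M replicate 2.

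Clcn7, a chloride-proton exchanger, and Ostm1, its β subunit, are both needed for bone resorption and did not move together. Clcn7 stood at 26.4, 28 and 20.3 in BMM, 37.3, 36.8 and 35.5 in FLM_M and 33.2, 25.3 and 24.9 in FLM_G. FLM_M was the highest, and BMM and FLM_G overlapped. Clcn7 was higher in FLM_M than in BMM (0.55, SE 0.14, adjusted p = 0.0105) and lower in FLM_G than in FLM_M (-0.39, SE 0.14, adjusted p = 0.0281), a call lost in 4 of 9 fits without 1 library (FLM_M replicates 1 and 2, FLM_G replicates 2 and 3). Ostm1 stood at 11.7, 10.9 and 10.3 in BMM, 10.2, 9.3 and 10 in FLM_M and 19, 17.9 and 14.7 in FLM_G. FLM_G was the highest, with 0.60 (SE 0.09, adjusted p = 0.000428) against BMM, not called without scaling, and 0.74 (SE 0.09, adjusted p = 9.35e-05) against FLM_M. The ratio of Clcn7 to Ostm1 was 2.26 ± 0.3 in BMM, 3.71 ± 0.21 in FLM_M and 1.62 ± 0.18 in FLM_G.

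Of the 10 hydrolases 7 were higher in FLM_G than in BMM, with a median change of 0.69, and 0 were lower by limma or edgeR, also at an unadjusted p under 0.05. Against FLM_M 6 were higher and 2 lower, with a median of 0.31. In FLM_M against BMM 5 were higher and 1 lower, with a median of 0.17. Without scaling limma called 3 lower in FLM_G than in BMM, Gaa (-0.50, adjusted p = 0.000467), Glb1 (-0.44, adjusted p = 2.68e-05) and Gusb (-0.41, adjusted p = 0.000248, a turned direction). Hexa, Naglu and Tpp1 then turned against FLM_M (-0.31, -0.02 and -0.39), with Hexa and Tpp1 called lower.

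Lipa, the acid lipase that frees cholesterol from its esters, had the widest changes of the 10 in both comparisons with FLM_M, while Gla, Neu1 and Naglu rose more in FLM_G against BMM. It stood at 412, 422 and 423 in BMM, 229, 201 and 222 in FLM_M and 769.6, 725 and 697 in FLM_G. FLM_M was the lowest and FLM_G the highest with no overlap. Lipa fell in FLM_M against BMM, with a change of -0.95 (SE 0.06, adjusted p = 3.4e-06), rose in FLM_G against BMM by 0.80 (SE 0.06, adjusted p = 4.32e-06), and was 3.36-fold higher in FLM_G than in FLM_M (1.74, SE 0.06, adjusted p = 1.83e-08). Gla, which removes terminal α-galactose from glycolipids, stood at 37.8, 37.2 and 36.8 in BMM, 39.2, 40 and 40.8 in FLM_M and 75.9, 78.1 and 78 in FLM_G. FLM_M lay just above BMM and was not called (0.10, SE 0.04, adjusted p = 0.062), and the gene rose in FLM_G by 1.03 (SE 0.04, adjusted p = 2.46e-08).

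Neu1, a sialidase, stood at 28.9, 29.1 and 30 in BMM, 27.1, 31.1 and 28.7 in FLM_M and 57.3, 54.5 and 56.7 in FLM_G. BMM lay inside the range of FLM_M, and FLM_G was 1.91-fold above BMM (0.91, SE 0.06, adjusted p = 7.69e-07). Naglu, a heparan sulfate enzyme, stood at 22.3, 25.3 and 28.1 in BMM, 32.9, 39.6 and 32.6 in FLM_M and 49.9, 47.2 and 47.7 in FLM_G. The groups did not overlap, and it rose by 0.46 (SE 0.10, adjusted p = 0.00477) in FLM_M and by 0.91 (SE 0.10, adjusted p = 3.62e-05) in FLM_G against BMM. Man2b1, an α-mannosidase, went with Gla and Neu1, at 85.9 ± 3.14 in BMM, 89 ± 4.91 in FLM_M and 140.4 ± 3.97 in FLM_G and 0.70 (SE 0.05, adjusted p = 3.63e-06) in FLM_G against BMM.

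Other hydrolases were raised in FLM_M. Tpp1, a tripeptidyl peptidase, stood at 79 ± 3.13 in BMM, 116 ± 0.135 in FLM_M and 124 ± 0.992 in FLM_G, and it was higher than in BMM by 0.55 (SE 0.04, adjusted p = 8.17e-06) in FLM_M and 0.65 (SE 0.04, adjusted p = 1.08e-06) in FLM_G. Gusb, the β-glucuronidase, was highest in FLM_M, at 89.5 ± 1.88 in BMM, 125 ± 8.3 in FLM_M and 89.9 ± 3.31 in FLM_G, by 0.48 (SE 0.06, adjusted p = 0.000148) against BMM, and FLM_G was lower than FLM_M, with a change of -0.47 (SE 0.06, adjusted p = 6.59e-05). Gaa, the acid glucosidase of glycogen, had the same order, at 14.6 ± 0.591 in BMM, 17.5 ± 0.851 in FLM_M and 13.6 ± 1.7 in FLM_G, but its change in FLM_M against BMM (0.24, SE 0.09, adjusted p = 0.0478) was lost in 7 of 9 fits without 1 library, each BMM and FLM_M library and FLM_G replicate 2. Glb1, the β-galactosidase, was not called in any comparison with scaling, at 35.9 ± 1.39 in BMM, 35.4 ± 0.293 in FLM_M and 35.2 ± 1.09 in FLM_G, and without it was called lower in FLM_G than in BMM, as above, and than in FLM_M (-0.48, adjusted p = 1.22e-05).

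Hexa, an enzyme of ganglioside breakdown, rose in both fetal liver cultures. It stood at 289 ± 2.26 in BMM, 412 ± 9.34 in FLM_M and 464 ± 8.28 in FLM_G and was higher than in BMM in FLM_M (0.51, SE 0.04, adjusted p = 1.4e-05) and FLM_G (0.68, SE 0.04, adjusted p = 7.8e-07).

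Psap, the precursor of the saposins that help enzymes reach glycolipids, was the most abundant of the 37 in every group. It stood at 1188, 1166 and 1149 in BMM, 716, 691 and 689 in FLM_M and 5503, 5818 and 5476 in FLM_G, which placed it 34th, 51st and 21st among all genes. The groups did not overlap, with FLM_M the lowest. Psap fell in FLM_M against BMM, with a change of -0.74 (SE 0.05, adjusted p = 6.75e-06) and rose in FLM_G by 2.26 (SE 0.05, adjusted p = 1.57e-09), to 4.79 times the BMM mean and 8.01 times the FLM_M mean. Grn, the progranulin precursor, whose protein travels to the lysosome together with prosaposin, did not follow it, at 283, 313 and 288 in BMM, 314, 282 and 292 in FLM_M and 235, 273 and 252 in FLM_G. It was lower in FLM_G than in BMM, with a change of -0.22 (SE 0.07, adjusted p = 0.0234) and than in FLM_M, with a change of -0.22 (SE 0.07, adjusted p = 0.02), each call lost in 3 of 9 fits without 1 library (FLM_G replicates 1 and 3 in both, with BMM replicate 2 or FLM_M replicate 1). The ratio of Psap to Grn was 3.97 ± 0.24 in BMM, 2.36 ± 0.084 in FLM_M and 22.2 ± 1.1 in FLM_G.

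**Figure D4:**
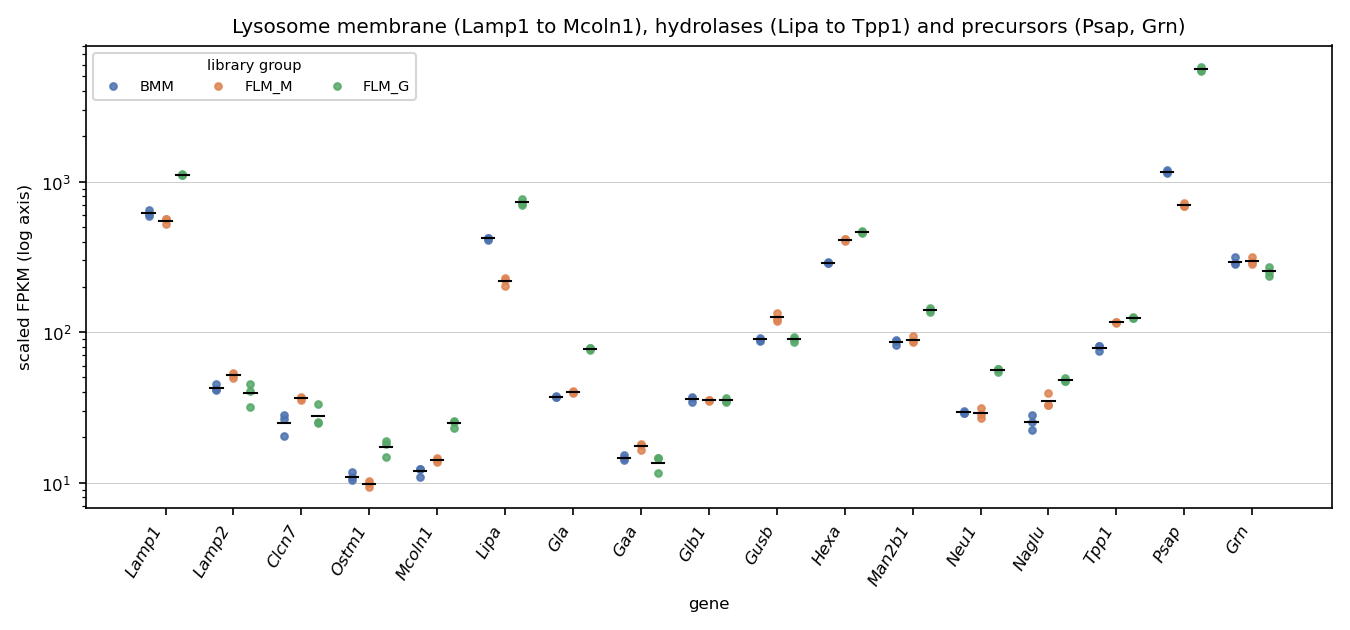
Scaled FPKM (log axis) of the 5 membrane genes, 10 hydrolases, Psap and Grn in each of the 9 libraries, with points for libraries and a black line for each group mean. Psap in FLM_G, between 5476 and 5818, is the highest value of the plot, and Lipa, Lamp1 and Psap share the order FLM_M below BMM below FLM_G.

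**Figure D5:**
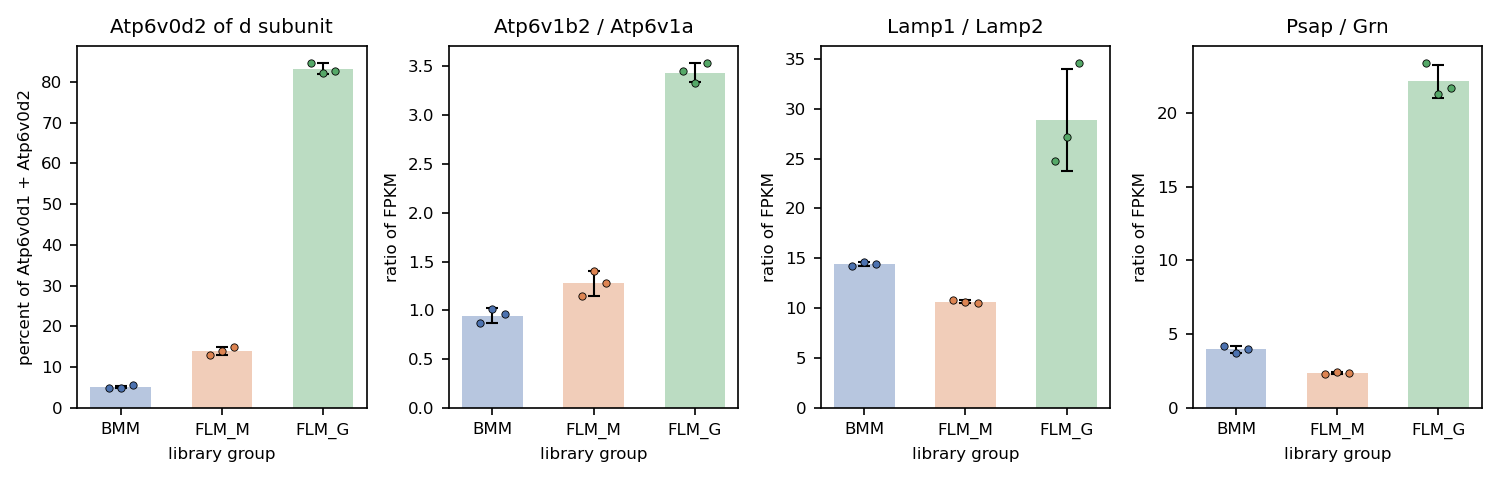
Ratios of FPKM within a library, with points for libraries, bars for the mean and error bars for the SD of 3 libraries: the share of Atp6v0d2 in the d subunit, and the ratios Atp6v1b2 to Atp6v1a, Lamp1 to Lamp2 and Psap to Grn. FLM_G stands apart in all 4 panels, at means of 83.2%, 3.44, 28.9 and 22.2.

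Set side by side, the proton pump and the hydrolases had much the same median change in FLM_M against BMM, 0.13 for the 17 pump genes and 0.17 for the 10 hydrolases. In FLM_G the pump lay higher, at 0.87 and 0.69 against BMM and at 0.60 and 0.31 against FLM_M. The difference of the medians was -0.04, 0.18 and 0.28 in the 3 comparisons. For scale, the pump median minus the hydrolase median of log2 levels was 0.55, 0.58 and 0.42 in the BMM libraries, 0.60, -0.02 and 0.40 in FLM_M, and 0.89, 0.99 and 1.00 in FLM_G, with a within-group SD of 0.19. The gap was thus larger in all FLM_G libraries than in all others. The SD rested in good part on FLM_M replicate 2, at -0.02: it was 0.1 without that library and 0.26 without FLM_M replicate 3. The pump median of a library is the level of its middle gene, in BMM replicate 3 and FLM_M replicate 3 that of Atp6ap1 (73.4 and 78.7). Atp6ap1 scattered within every group and stood at 45.6 in FLM_M replicate 2, so the SD depended in part on this gene. The difference of 0.28 was larger than each of these SDs, and that of 0.18 was larger only than the SD without FLM_M replicate 2. The SDs are of levels in libraries and the differences are of fitted changes, so they stand side by side only for scale. The 3 regulators had a median change of -0.17 in FLM_M against BMM, 0.68 in FLM_G against BMM and 0.85 against FLM_M, with Tfe3 opposite in sign to the other two in FLM_G.

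In summed FPKM the pump genes went from 1125 ± 21.8 in BMM to 1305 ± 18.7 in FLM_M and 3183 ± 34.5 in FLM_G, while the hydrolases went from 1105 ± 10.4 to 1116 ± 29.9 and 1780 ± 28.1. Much of the pump's sum in FLM_G was Atp6v0d2, and without that gene it was 1120 ± 22.1, 1289 ± 18.2 and 2229 ± 74.8. The V0 sum without Atp6v0d2 was 343.5 ± 21.5, 366.6 ± 11.5 and 702.0 ± 38.3, and the V1 sum was 611.3 ± 13.5, 748.1 ± 41.4 and 1325 ± 16.7. The SD of the log2 changes over pump genes in FLM_G against BMM was 1.67, carried by Atp6v0d2, and 0.59 over the other 16, beside 0.43 over the hydrolases. Against FLM_M it was 0.54 over those 16, beside 0.67 over the hydrolases.

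Other lysosomal genes, from lists of names, were mixed. Of all tested genes, 33.8% were called higher and 34.1% lower in FLM_G against BMM, and 22.7% and 21.9% in FLM_M against BMM. Of 27 further hydrolases and activators, 16 were higher and 5 lower in FLM_G than in BMM (median 0.38), and 10 were higher and 7 lower in FLM_M than in BMM (median 0.1). Acp5, the tartrate-resistant phosphatase, stood at 4.44, 4.3 and 4.39 in BMM, 0, 0.176 and 0 in FLM_M and 141, 165 and 169 in FLM_G. FLM_M was near 0 and FLM_G far above BMM, by 4.89 (SE 0.09, adjusted p = 2.84e-10). Pla2g15, a lysosomal phospholipase, rose in FLM_G by 2.29 (SE 0.04, adjusted p = 3.18e-10), and Hgsnat, which acetylates heparan sulfate, by 1.33 (SE 0.04, adjusted p = 7.53e-09). Sgsh, a sulfatase of the same pathway as Hgsnat and Naglu, fell to 0.29 ± 0.0208 FPKM from 11.2 ± 0.365 in BMM, with a change of -3.24 (SE 0.06, adjusted p = 2.04e-10).

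Of 20 further membrane genes 17 passed the filter, with 8 higher and 3 lower in FLM_G than in BMM (median 0.22), and 4 higher and 7 lower in FLM_M than in BMM (median -0.16). Cd63, a tetraspanin, was higher in FLM_G (334 ± 4.3 in BMM, 481 ± 29.5 in FLM_M and 993 ± 30.9 in FLM_G). The endolysosomal channels Tpcn1 and Tpcn2 parted: Tpcn1 stood at 16.4 ± 0.991 in BMM, 8.72 ± 0.927 in FLM_M and 3.81 ± 0.167 in FLM_G, and Tpcn2 at 30.4 ± 0.969 in BMM, 21.8 ± 1.55 in FLM_M and 50.2 ± 3.85 in FLM_G. Slc11a1, a metal transporter of phagosomes, was high in BMM only, at 57.9 ± 3.68 in BMM, 6.96 ± 0.469 in FLM_M and 4.76 ± 0.0999 in FLM_G, with -2.89 (SE 0.06, adjusted p = 3.66e-09) in FLM_M and -3.35 (SE 0.06, adjusted p = 3.56e-10) in FLM_G.

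Of the 6 genes of mannose 6-phosphate sorting, 2 were higher and 2 lower in FLM_G than in BMM. The higher ones were M6pr, also a mannose 6-phosphate receptor, and Sort1, and the lower ones were Igf2r and Gnptab. Igf2r, the large mannose 6-phosphate receptor, stood at 24.8, 25.3 and 24.5 in BMM, 10.4, 7.9 and 8.29 in FLM_M and 3.76, 3.61 and 3.33 in FLM_G. It was highest in BMM and lowest in FLM_G with no overlap, at -2.50 (SE 0.09, adjusted p = 2.58e-08) in FLM_G against BMM. Gnptab, which makes the mannose 6-phosphate tag, stood at 25.9 ± 2.7 in BMM, 16.2 ± 1.01 in FLM_M and 10.2 ± 2.47 in FLM_G, and Gnptg at 11.6 ± 0.346 in BMM, 15 ± 1.37 in FLM_M and 12.1 ± 0.298 in FLM_G. Sort1, the sortilin receptor that carries prosaposin and progranulin among others, stood at 6.4, 6.42 and 6.2 in BMM, 0.108, 0.127 and 0.101 in FLM_M and 113, 117 and 114 in FLM_G. FLM_G was far above BMM, by 3.98 (SE 0.04, adjusted p = 2.28e-11), and FLM_M far below it, with a change of -2.72 (SE 0.04, adjusted p = 7.85e-10).

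Of 15 genes listed with the control of MiT/TFE factors at the lysosome, 8 were higher and 3 lower in FLM_G than in BMM (median 0.32). In FLM_M against BMM, 3 were higher and 2 lower (median 0.02). Both higher counts include Tfec, itself a member of the family. Apart from Tfec, Rragc, a Rag GTPase, stood at 50.9 ± 2.24 in BMM, 58.1 ± 20.1 in FLM_M and 102 ± 2.49 in FLM_G, and Lamtor2, of the Ragulator scaffold, at 32 ± 0.997 in BMM, 34.8 ± 2.0 in FLM_M and 73.1 ± 7.21 in FLM_G, both higher in FLM_G than in BMM (0.99, SE 0.23, adjusted p = 0.00438, and 1.16, SE 0.07, adjusted p = 1.21e-06, in that order). Rptor, which brings mTORC1 its substrates, was lower there, at 5.97 ± 0.329 in BMM, 4.96 ± 0.55 in FLM_M and 1.51 ± 0.383 in FLM_G and -1.48 (SE 0.12, adjusted p = 5.19e-06).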

How the data were processed

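RNA from 9 libraries was sequenced for 101 cycles from 1 end after a stranded mRNA preparation, per the labels' protocols. The submitters' processing notes name HISAT2 and StringTie, beside bcl2fastq, FastQC, cutadapt and DESeq2, for build GRCm38 (mm10), with no versions or roles. The authors deposited FPKM per gene and a table of counts. The deposited counts sum to 782400 to 1170813 per library. This is 2.52% to 3.5% of the reads implied by the steps of the FPKM values (28400000 to 35400000, from 25308 genes with 1 transcript in GENCODE M21). By an earlier account of these data, the counts also follow the opposite strand of most genes. FPKM were therefore used, and the counts served only as an alternative.

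FPKM were divided by TMM factors (edgeR 4.0.16). Genes with at least 1 FPKM in at least 3 libraries were fitted with limma 3.58.1 (R 4.3.3) on log2(FPKM + 1), 1 mean per group over all 9 libraries with 6 residual degrees of freedom, trend on, two-sided, with Benjamini-Hochberg adjustment over the 11952 tested genes. The script was tested on simulated data. Ratios, sums, motifs and figures used Python 3.11.15, pandas 2.3.3 and matplotlib 3.10.9. Positions are whole genes of GENCODE M21 (GRCm38), and promoter windows are RefSeq's (GRCm38.p6).

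The 37 genes, the other lists and the tests were chosen with earlier results of these data known. Values in every library are given for the regulators, the a and d subunits and up to 4 genes per class with the largest changes; from other lists up to 4 called genes with a mean of at least 5 FPKM in the higher group, plus Tcirg1, Tfec and Acp5. A comparison of protein sequences, also planned, was not run, and 1 gene of a further list is not reported here. Alternatives were other scalings, filters and pseudocounts, fits of 6 libraries or without 1 library, a replicate block, a test against a 1.5-fold change, and edgeR's quasi-likelihood test on the counts.

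Marker lists beside the macrophage and osteoclast lists were summed in FPKM. Erythroid genes summed to at most 0.279, fibroblast genes to 0.165, B and T cell genes to 0.0914, and mast cell genes to 0.0371 in any library. Dendritic cell genes reached 3.08 (FLM_G) and eosinophil genes 1.38 (BMM). Of the hepatocyte list Alb, Ttr, Apoa1 and Serpina1a were listed at 0, and its sum, mostly Trf, lay between 6.43 and 7.13 in BMM, 28.97 and 37.1 in FLM_M, and 120.1 and 134.9 in FLM_G. The neutrophil list, mostly S100a8 with Elane, Ly6g and Camp at 0, summed to 49.7 to 56.6 in FLM_G, and the megakaryocyte list, mostly Pf4, to 188.5 to 197.3 in BMM, 144.4 to 186.8 in FLM_M and 0.474 to 0.697 in FLM_G. Their part in the results was not tested.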

Additional observations from a re-analysis of the deposited data

How the results depend on the processing

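Scaling moved directions, while a stricter test and the counts moved the number of calls. Without scaling, 9 genes in place of 2 were lower in FLM_G than in BMM and 14 in place of 6 were lower than in FLM_M, and some log2 changes turned. Against BMM these were Atp6v0a1 (-0.076), Atp6v1g1 (-0.020), Atp6v1h (-0.189), Atp6ap2 (-0.254) and Gusb (-0.414). Against FLM_M they were Atp6v0a1 (-0.294), Atp6v1a (-0.245), Atp6v1f (-0.030), Atp6v1h (-0.259), Hexa (-0.314), Naglu (-0.020) and Tpp1 (-0.385). No scaling moved the median of all genes too, so the members' median stayed above it, at 0.298 beside -0.341 against BMM and 0.114 beside -0.389 against FLM_M. Tested against a 1.5-fold change, 1 gene was higher (Atp6v0d2) and 1 lower (Lipa) in FLM_M against BMM, 0 were lower in FLM_G against BMM, and 15 were higher and 0 lower in FLM_G against FLM_M. Of all 11952 tested genes, that test called 552 higher and 493 lower in FLM_M against BMM. It called 1338 lower in FLM_G against BMM, and 1626 higher and 1536 lower in FLM_G against FLM_M. By edgeR's quasi-likelihood test on the counts, 0 were lower in FLM_M and 0 in FLM_G against BMM, and 12 were higher and 1 lower in FLM_G against FLM_M. Of all genes, this test called 1300 in FLM_M against BMM, 2458 in FLM_G against BMM and 2855 in FLM_G against FLM_M, both directions together. No gene of the 37 called by both limma and edgeR went opposite ways, but the strand of the counts, given above, limits what edgeR can show. At an unadjusted p under 0.05 the test against a 1.5-fold change gave 0 lower in both comparisons of FLM_G, and edgeR gave 1 (Tfeb) in FLM_M and 0 in FLM_G against BMM. Apart from fits without 1 library, the other counts stayed within 1.5 times.

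Leaving out 1 library at a time gave 10 to 15 genes higher and 5 to 6 lower in FLM_M against BMM, 24 to 27 and 1 to 2 in FLM_G against BMM, and 23 to 25 and 4 to 6 in FLM_G against FLM_M. The single lower gene, Tfe3, remained without BMM replicate 2 and without FLM_G replicate 1 or 3. All 9 such fits called 15 of 19, 25 of 28 and 26 of 30 genes again. Over all tested genes (11601 to 11775), these fits called 2077 to 2800 higher and 2042 to 2709 lower in FLM_M against BMM. In FLM_G they called 3566 to 4033 higher and 3596 to 4031 lower against BMM. Against FLM_M they called 3792 to 4133 higher and 3732 to 4114 lower in FLM_G. The pump median minus the hydrolase median ranged from -0.088 to 0.021, 0.167 to 0.199 and 0.244 to 0.331; in FLM_M against BMM it turned from -0.042 to 0.007 without BMM replicate 1 and to 0.021 without FLM_M replicate 2. The replicate numbers gave no clear pairing over the 3 groups. Deviations of same-numbered libraries correlated at -0.077 to 0.09 and those of other pairs at -0.096 to 0.072. In both other groups at once, 2 of 9 libraries correlated best with their own number. Between BMM and FLM_G, however, the same-numbered pairs stood at 0.068, 0.09 and 0.053, and all other pairs were negative. FLM_M replicate 3 was negative with its own number, at -0.023 with BMM and -0.077 with FLM_G. With a replicate block 12, 26 and 25 genes were higher and 6, 2 and 6 lower. Of all 11952 tested genes, 2598, 4012 and 4240 were then higher and 2542, 4006 and 4146 lower. By limma with this block, Gaa was lost in FLM_M against BMM (adjusted p = 0.0551) and Atp6v0a2 gained in FLM_G against FLM_M (0.0408).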

Other observations

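Further lists of genes around the lysosome showed no common direction. Their counts in FLM_G against BMM stand beside 33.8% of all tested genes called higher and 34.1% called lower. Of 10 genes of pump assembly and of the RAVE complex, which joins V1 to V0, 9 passed the filter, and in FLM_G against BMM 3 were higher and 4 lower, with a median of -0.43. Dmxl2, a RAVE subunit, stood at 1.53 ± 0.0941 FPKM in BMM and rose to 5.58 ± 1.5 in FLM_G (1.36, SE 0.14, adjusted p = 2.66e-05), while Rogdi, also of this complex, fell from 5.71 ± 0.167 to 3.4 ± 0.401 (-0.61, SE 0.07, adjusted p = 7.86e-05). Oxr1 and Ncoa7, whose proteins take part in disassembly of the pump, changed by -0.62 (SE 0.15, adjusted p = 0.00482) and -0.43 (SE 0.12, adjusted p = 0.0131). Vma21 and Ccdc115 scattered within groups too widely for a call.

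Of 10 autophagy genes known as Tfeb targets 5 were higher and 4 lower in FLM_G than in BMM, with a median of 0.17. For comparison, 33.8% of all tested genes were called higher there and 34.1% lower. Gabarapl1 and Map1lc3b, which coat autophagosomes, rose by 1.42 (SE 0.05, adjusted p = 1.29e-08) and 0.85 (SE 0.05, adjusted p = 9.52e-07), and Uvrag changed by -0.28 (SE 0.06, adjusted p = 0.00244). Gpnmb, a lysosomal glycoprotein, was highest in FLM_M, at 718 ± 14.7 in BMM, 1583 ± 89.2 in FLM_M and 1033 ± 31.2 in FLM_G. Protein or nuclear Tfeb was not measured.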
